A study of Mus musculus with 9 samples.

Results

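Transcripts of 36 genes that act in G2 and mitosis were followed in CD8-positive T cells sorted from mouse melanomas. The genes were taken by symbol from a deposited table of 56860 genes, and all 36 passed the filter on low counts that left 15292 genes for testing. They fall into 8 genes of mitotic entry, mainly kinases and cyclins, and 5 genes of the spindle checkpoint and anaphase-promoting complex. Another 8 are genes of the centromere, kinetochore and chromosomal passenger complex. The others are 7 spindle motors and microtubule binders, 4 cytokinesis genes and 4 genes of mitotic chromatin. Polyadenylated RNA was sequenced from cells sorted by flow cytometry on PD-1, an inhibitory receptor of activated T cells whose gene is Pdcd1, and on α2,6-linked sialoglycans at the cell surface. The 3 groups had 3 libraries each and are called SiaHi_PD1neg (sialoglycan high, PD-1 negative), SiaHi_PD1pos (sialoglycan high, PD-1 positive) and SiaLo_PD1pos (sialoglycan low, PD-1 positive). All groups shared a wild-type genotype and received no treatment. The tumour is given as B16-OVA, a B16 melanoma line expressing chicken ovalbumin, in the sample labels and as B16F10 in the series description, and neither states the age of the mice or whether animals were pooled.

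Cells enter mitosis when cyclin A and cyclin B activate the kinase Cdk1. Kinetochores then attach chromosomes to the spindle, and the spindle checkpoint holds back the anaphase-promoting complex until every chromosome is attached, after which cyclin B is destroyed and cytokinesis divides the cell. In dividing cells most of these genes are transcribed together late in the cycle under the B-MYB, MuvB and FOXM1 complexes, which act through the cell cycle homology region (CHR, with the core TTTGAA or the variant core TTCGAA) and the CCAAT boxes bound by NF-Y. In quiescent cells the DREAM complex represses the same promoters. Naive and resting memory T cells transcribe little of this set, while activated CD8 T cells divide and transcribe it strongly.

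Because the genes were measured as a group, promoters with both kinds of motif are shown as examples of what they share in sequence. The 120 bases before the annotated start are written 5′ to 3′ on the strand of the gene, in lower case with motif matches in capitals. These are TTTGAA or, read on the other strand, TTCAAA, the variant TTCGAA, and CCAAT, which on the other strand reads ATTGG. They were chosen, after the sequences were seen, as fully described members with both a TTTGAA and a CCAAT match in this stretch. They are from RefSeq on GRCm38.p6. Ect2 also had both, in the stretch chr3:27153879-27153998 on the minus strand, and is not shown.
Top2a (minus strand, chr11:99024190-99024309): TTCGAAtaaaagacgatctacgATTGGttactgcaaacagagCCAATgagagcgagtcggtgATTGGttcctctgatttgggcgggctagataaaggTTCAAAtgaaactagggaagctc
Cdc20 (minus strand, chr4:118437344-118437463): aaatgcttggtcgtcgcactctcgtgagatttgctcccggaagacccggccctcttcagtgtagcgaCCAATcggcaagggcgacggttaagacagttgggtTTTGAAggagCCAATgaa
Ube2c (plus strand, chr2:164769809-164769928): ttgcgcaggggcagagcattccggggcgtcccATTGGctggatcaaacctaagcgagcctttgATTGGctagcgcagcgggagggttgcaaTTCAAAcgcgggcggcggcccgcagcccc
Hmgb2 (plus strand, chr8:57511723-57511842): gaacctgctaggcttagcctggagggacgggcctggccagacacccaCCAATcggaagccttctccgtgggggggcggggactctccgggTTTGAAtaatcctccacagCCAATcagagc
Kif11 (plus strand, chr19:37376262-37376381): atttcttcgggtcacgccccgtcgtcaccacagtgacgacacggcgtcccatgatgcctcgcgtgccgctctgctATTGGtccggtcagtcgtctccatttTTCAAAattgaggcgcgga
The Top2a stretch held 3 CCAAT matches as well as 1 TTTGAA match and 1 match to the TTCGAA variant. Of the 36 genes 31 matched a RefSeq promoter, and Aurkb, Ccna2, Cdc25c, Kif20a and Tpx2 did not. TTTGAA was present on either strand, from 250 bases before to 50 bases after a start, in 24 of the 31 genes (77.4%), against 17.9% of all 32851 promoters in the table, 20.2% of all 27025 genes and 15.0% of 10925 tested genes. CCAAT was also present in 24 of the 31 (77.4%), against 37.4% of all promoters and 42.9% of tested genes. Both motifs were present in 21 genes (67.7%), against 6.95% of promoters and 6.13% of tested genes. In the 250 bases before a start alone, TTTGAA was present in 12 of the 31 genes (38.7%) and both motifs in 11 (35.5%), against 18.3% and 6.45% of all 27025 genes, while CCAAT stayed at 24 (77.4%), against 37.5%. TTCGAA, which is its own reverse complement, was present in 3 genes (9.68%), against 1.56% of promoters, 1.80% of all 27025 genes and 2.47% of tested genes. At least 2 CCAAT matches lay in the 250 bases before a start in 17 of the 31 genes (54.8%), against 11.5% of 27025 genes. Genes with several starts were counted if any start matched, 2 overlaps between matches were found in the promoters of the 31 genes, and a match in letters is not evidence that a factor binds there.

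Libraries held 9714020 to 15030442 counts in genes. The 4 T cell core transcripts Cd3e, Cd3g, Cd8a and Cd8b1 took 0.0914% to 0.0983% of the reads of SiaHi_PD1neg libraries and 0.314% to 0.392% of the reads of PD-1-positive libraries. Pdcd1 was at 77.5, 36.1 and 51.3 CPM in SiaHi_PD1neg, 892, 864 and 939 CPM in SiaHi_PD1pos, and 1105, 1097 and 1163 CPM in SiaLo_PD1pos, which follows the sort. The summed level of 17 dendritic cell and MHC class II markers was 20543 to 23535 CPM in SiaHi_PD1neg, 3257 to 5722 CPM in SiaHi_PD1pos and 2173 to 2594 CPM in SiaLo_PD1pos. Levels here and below are CPM, counts relative to library sizes scaled with TMM factors, unless a scaling to T cell core reads is named. Within SiaHi_PD1pos, replicates 2 and 3 stood apart from each other by gene length. Some results on library scaling are given with and without replicate 2 below. No fit on T cell core scaling was made without it. The labels do not say whether replicates are separate animals or cultures, so the p-values measure library-to-library spread alone, and that spread may be technical.

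The comparison of SiaHi_PD1pos with SiaHi_PD1neg asked how sialoglycan-high cells with and without PD-1 differ. Relative to all RNA in each library, 35 of the 36 genes rose in the PD-1-positive libraries and none fell, also at an unadjusted p under 0.05 or with DESeq2 or limma-voom, and the remaining gene, Anln, did not pass. The rise had a median log2 fold change of 1.68, against a median of 0.02 over all 15292 tested genes, and the largest was that of Nusap1 at 4.28-fold. Per T cell core read this direction was lost: none of the 36 rose and 10 fell, where 1.90% of all tested genes were called higher and 80.0% lower. On library scaling, 21.0% of tested genes were called higher in this comparison and 19.2% lower (edgeR quasi-likelihood test, Benjamini-Hochberg adjusted p under 0.05). The summed level of the 36 genes was 1614, 1502 and 1527 CPM in SiaHi_PD1neg replicates 1, 2 and 3, and 5229.6, 4924 and 4658 CPM in SiaHi_PD1pos. It was 5133, 5749 and 4962 CPM in SiaLo_PD1pos. Every PD-1-positive library thus lay above every SiaHi_PD1neg library on this scale, and the PD-1-positive groups overlapped. In bulk RNA, fewer dividing cells, less of these transcripts per dividing cell and a smaller share of T cell RNA cannot be told apart. The 4 T cell core transcripts took 0.0914% to 0.0983% of reads in SiaHi_PD1neg libraries and 0.314% to 0.392% in PD-1-positive ones.

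**Figure D1:**
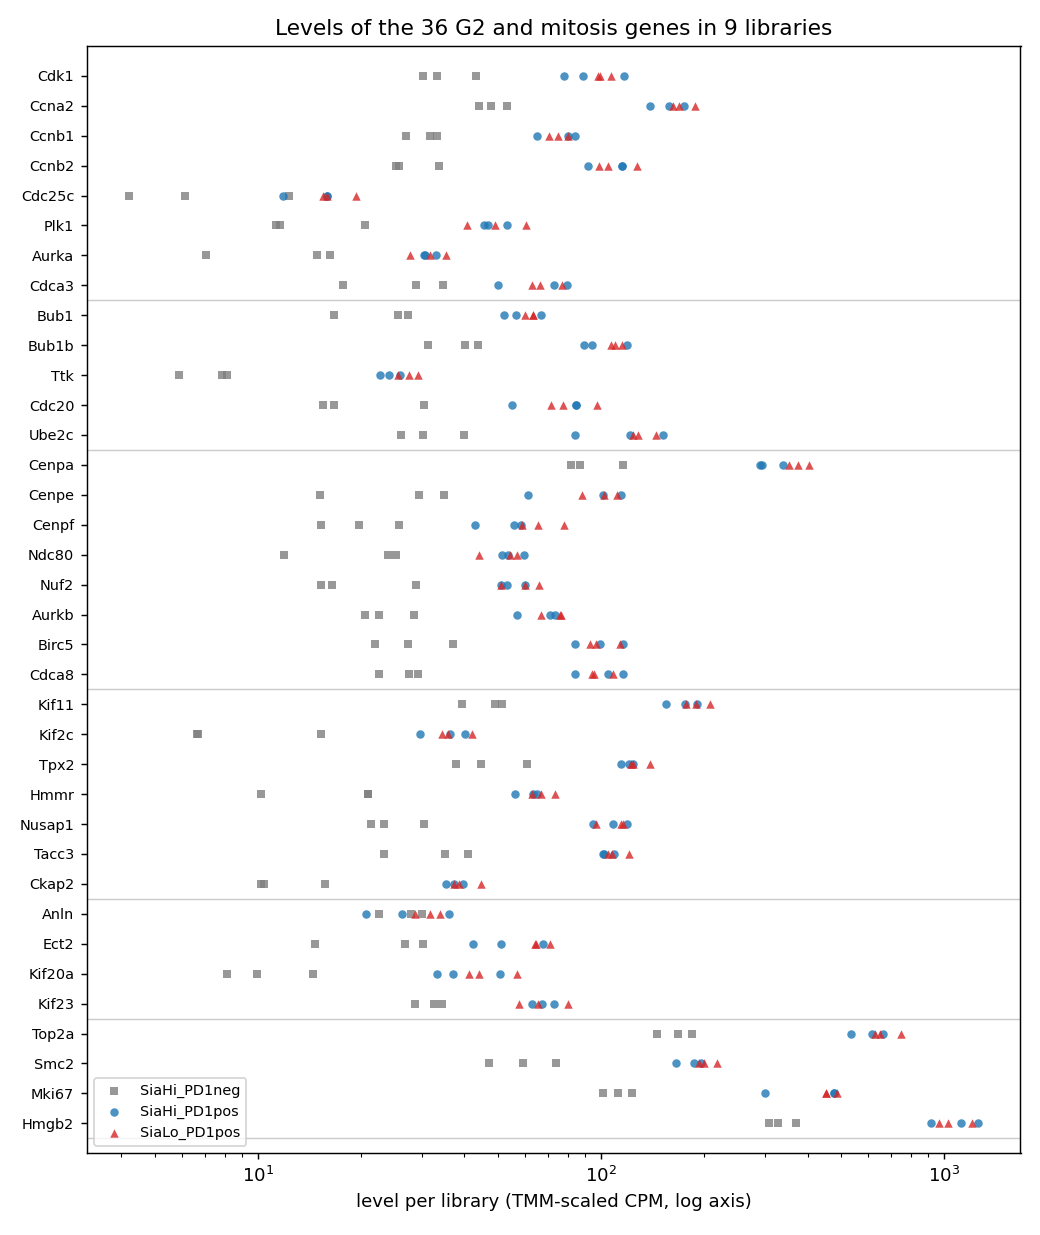
Level of each of the 36 genes in each of the 9 libraries, in TMM-scaled CPM on a log axis, with 1 point per library, colours and shapes for the groups and lines between the roles. On this scaling the 3 SiaHi_PD1neg libraries lie below the PD-1-positive libraries for all genes except Anln and Cdc25c, and the order is not kept per T cell core read.

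All 8 genes of mitotic entry rose in SiaHi_PD1pos on library scaling, with log2 fold changes of 0.94 to 1.92. Per T cell core read 4 of them fell. Of all tested genes, 21.0% were called higher on library scaling and 80.0% lower per T cell core read. Ccna2, which encodes cyclin A2 and lies on chromosome 3 from 36619014 to 36626299 in the file's coordinates, was at 44.0, 47.9 and 53.2 CPM in SiaHi_PD1neg, 175, 158 and 139 CPM in SiaHi_PD1pos, and 162, 188 and 169 CPM in SiaLo_PD1pos. The PD-1-positive groups overlapped and both stood clear of SiaHi_PD1neg. Ccna2 rose 3.25-fold in SiaHi_PD1pos (log2 1.70, SE 0.14, edgeR adjusted p = 7.45e-07) and 3.57-fold in SiaLo_PD1pos (edgeR adjusted p = 2.55e-07). Ccnb2, a B-type cyclin gene on chromosome 9 from 70314974 to 70328829, was at 25.2, 33.7 and 25.8 CPM, then 115, 115 and 91.5 CPM, then 105, 127 and 98.5 CPM in the same order of groups. It rose 3.79-fold in SiaHi_PD1pos (log2 1.92, SE 0.17, edgeR adjusted p = 1.55e-06), the most of this role. Its lowest PD-1-positive library was well above its highest SiaHi_PD1neg library. Cdk1, the kinase that these cyclins activate, was at 43.2, 33.3 and 30.2 CPM, then 88.6, 117 and 77.9 CPM, then 99.2, 107 and 97.8 CPM, and is named after its values were seen. It rose 2.65-fold in SiaHi_PD1pos (log2 1.40, SE 0.18, edgeR adjusted p = 3.85e-05). Cdc25c, a phosphatase that activates Cdk1, had the weakest call, and it too is named after its values were seen. It was at 6.12, 12.3 and 4.22 CPM in SiaHi_PD1neg, 15.9, 15.9 and 11.8 CPM in SiaHi_PD1pos, and 15.5, 19.3 and 15.9 CPM in SiaLo_PD1pos. SiaHi_PD1neg replicate 2 lay above the lowest SiaHi_PD1pos library. Its log2 fold change of 0.94 (SE 0.35) passed narrowly (edgeR adjusted p = 0.0454), and it did not pass in 7 of the 9 fits that left out 1 library, where the adjusted p reached 0.119, namely without SiaHi_PD1neg replicate 1 or 3, SiaHi_PD1pos replicate 1 or 2, or any 1 SiaLo_PD1pos library. The other members of this role were Ccnb1, Plk1 and Aurka, which encode cyclin B1 and the mitotic kinases Polo-like kinase 1 and Aurora A, and Cdca3.

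In the spindle checkpoint and anaphase-promoting complex all 5 genes rose in SiaHi_PD1pos on library scaling, with log2 fold changes of 1.33 to 1.89. Per T cell core read Bub1 and Bub1b fell. The shares of all tested genes were 21.0% higher on library scaling and 80.0% lower per T cell core read. Cdc20, the activator of the complex, on chromosome 4 from 118290098 to 118294549, was at 16.7, 30.6 and 15.5 CPM in SiaHi_PD1neg, 84.7, 84.5 and 55.1 CPM in SiaHi_PD1pos, and 77.3, 97.1 and 71.5 CPM in SiaLo_PD1pos. SiaHi_PD1pos replicate 3 was the low library of its group, and was still above all of SiaHi_PD1neg. The rise was 3.56-fold (log2 1.83, SE 0.26, edgeR adjusted p = 9.15e-05). Ube2c, the ubiquitin-conjugating enzyme that works with the complex, on chromosome 2 from 164611818 to 164620742, was at 40.0, 26.2 and 30.3 CPM, then 122, 151 and 84.0 CPM, then 128, 145 and 124 CPM. It rose 3.70-fold (log2 1.89, SE 0.21, edgeR adjusted p = 1.36e-05). Its 3 SiaHi_PD1pos libraries spread more widely than its 3 SiaLo_PD1pos libraries, with an SD of 33.7 CPM against 10.9 CPM. Bub1, Bub1b and Ttk encode kinases or a kinase relative of the checkpoint itself, and ran at mean levels of 58.5, 101 and 24.2 CPM in SiaHi_PD1pos.

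All 8 genes of the centromere, kinetochore and chromosomal passenger complex rose in SiaHi_PD1pos on library scaling, by 1.37 to 1.94 in log2. Of all tested genes 21.0% were called higher there. Per T cell core read none of the 8 was called, where 1.90% of all tested genes were called higher and 80.0% lower. Cenpa, the histone H3 variant that marks centromeres, on chromosome 5 from 30824121 to 30832174, was at 86.9, 81.6 and 116 CPM in SiaHi_PD1neg, 294, 292 and 339 CPM in SiaHi_PD1pos, and 376, 354 and 404 CPM in SiaLo_PD1pos. It rose 3.25-fold (log2 1.70, SE 0.15, edgeR adjusted p = 1.35e-06). For Cenpa the 3 groups did not overlap at all. Birc5, which encodes survivin, a subunit of the passenger complex, on chromosome 11 from 117740077 to 117746569, was at 37.1, 27.4 and 21.9 CPM, then 99.6, 116 and 84.3 CPM, then 92.9, 113 and 96.4 CPM. The PD-1-positive groups were alike in level and both stood clear of SiaHi_PD1neg. Birc5 rose 3.46-fold (log2 1.79, SE 0.19, edgeR adjusted p = 9.88e-06). Cdca8, which encodes borealin of the same complex, on chromosome 4 from 124812258 to 124833104, was at 29.4, 27.5 and 22.5 CPM, then 105, 116 and 84.3 CPM, then 94.1, 108 and 95.2 CPM. It rose 3.83-fold (log2 1.94, SE 0.16, edgeR adjusted p = 1.06e-06), the most of this role. The kinetochore genes Ndc80 and Nuf2, which bind microtubules as partners, had almost the same mean level, 54.8 CPM each in SiaHi_PD1pos, against 20.4 and 20.2 CPM in SiaHi_PD1neg. Cenpe, Cenpf and Aurkb, a kinesin, a kinetochore protein and the passenger kinase Aurora B, make up the rest.

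Of the spindle motors and microtubule binders, all 7 rose in SiaHi_PD1pos on library scaling, by 1.32 to 2.10 in log2. Per T cell core read 1 of them, Tpx2, fell. All tested genes had shares of 21.0% higher on library scaling and 80.0% lower per T cell core read. Nusap1, a nucleolar and spindle protein that bundles microtubules, on chromosome 2 from 119448779 to 119481725, was at 21.4, 30.5 and 23.4 CPM in SiaHi_PD1neg, 108, 119 and 94.7 CPM in SiaHi_PD1pos, and 114, 116 and 96.7 CPM in SiaLo_PD1pos. It rose 4.28-fold (log2 2.10, SE 0.17, edgeR adjusted p = 6.95e-07). Its PD-1-positive libraries mixed freely and lay far above the others. Kif11, the kinesin that pushes spindle poles apart, on chromosome 19 from 37364851 to 37410307, was at 51.4, 39.4 and 49.2 CPM, then 191, 154 and 176 CPM, then 189, 207 and 177 CPM. Kif11 rose 3.72-fold (log2 1.90, SE 0.14, edgeR adjusted p = 4.81e-07). The spread within each group was small beside that difference. Tacc3, which stabilises microtubule bundles at kinetochores, on chromosome 5 from 33815472 to 33836339, was at 35.1, 40.9 and 23.4 CPM, then 102, 109 and 101 CPM, then 105, 121 and 108 CPM. It rose 3.14-fold (log2 1.65, SE 0.18, edgeR adjusted p = 1.03e-05). Tpx2, which activates Aurora A on the spindle, on chromosome 2 from 152689884 to 152737241, was at 61.1, 37.9 and 44.7 CPM, then 121, 124 and 114 CPM, then 123, 139 and 124 CPM. Its rise was the smallest of this role at 2.50-fold (log2 1.32, SE 0.16, edgeR adjusted p = 3.31e-05). Kif2c, Hmmr and Ckap2, a microtubule-destabilising kinesin and 2 spindle-binding proteins, had mean levels of 35.4, 61.5 and 37.5 CPM in SiaHi_PD1pos.

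The cytokinesis genes were the most uneven role on library scaling, with 3 of 4 called higher in SiaHi_PD1pos, beside 21.0% of all tested genes. Per T cell core read Anln, Ect2 and Kif23 fell, a share near the 80.0% of all tested genes called lower. Kif20a, a kinesin of the central spindle, was at 14.5, 9.92 and 8.15 CPM in SiaHi_PD1neg, 50.7, 37.0 and 33.3 CPM in SiaHi_PD1pos, and 44.0, 56.9 and 41.3 CPM in SiaLo_PD1pos. It rose 3.70-fold (log2 1.89, SE 0.25, edgeR adjusted p = 4.98e-05). The PD-1-positive libraries all lay above the SiaHi_PD1neg libraries. Ect2, the exchange factor that switches on RhoA at the cell equator, on chromosome 3 from 27151371 to 27208027, was at 14.7, 26.8 and 30.3 CPM, then 67.6, 51.1 and 42.3 CPM, then 64.6, 71.2 and 64.3 CPM. It rose 2.25-fold (log2 1.17, SE 0.24, edgeR adjusted p = 0.00189). Its SiaHi_PD1pos libraries were spread, with replicate 1 the highest and replicate 3 the lowest. Kif23, a kinesin of the centralspindlin complex that recruits Ect2, was at 28.6, 32.7 and 34.4 CPM, then 67.5, 63.0 and 73.2 CPM, then 65.4, 80.1 and 57.5 CPM. It rose 2.13-fold (log2 1.09, SE 0.16, edgeR adjusted p = 0.000127) and is named after its values were seen.

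Anln, which encodes the actin-binding scaffold anillin of the contractile ring, was the exception among the 36 and is also named after its values were seen. It was at 27.9, 30.1 and 22.6 CPM in SiaHi_PD1neg, 26.3, 20.7 and 36.04 CPM in SiaHi_PD1pos, and 31.8, 34.0 and 28.6 CPM in SiaLo_PD1pos. The 3 groups overlapped, and the widest spread was within SiaHi_PD1pos. Its log2 fold change was 0.04 (95% interval -0.43 to 0.51, edgeR adjusted p = 0.897) in SiaHi_PD1pos and 0.23 (95% interval -0.24 to 0.70, edgeR adjusted p = 0.444) in SiaLo_PD1pos. Per 1000 T cell core reads it was at 30.3, 30.5 and 25.9 reads in SiaHi_PD1neg, 8.04, 5.54 and 11.8 in SiaHi_PD1pos, and 8.28, 8.48 and 8.19 in SiaLo_PD1pos. On that scale SiaHi_PD1neg lay clear above the other groups, and Anln fell 3.42-fold in SiaHi_PD1pos (log2 -1.77, SE 0.25, edgeR adjusted p = 3.32e-05). Markers of other cells moved with this comparison: all 14 melanoma markers, all 17 dendritic cell and MHC class II markers, 13 of 15 macrophage and monocyte markers and 9 of 11 fibroblast and endothelial markers fell on library scaling. Of the tested markers of other lymphocytes, 4 of 7 for B cells fell, and 4 of 8 for CD4 and regulatory T cells rose and 1 fell. For natural killer cells 3 of 11 rose and 4 fell. Over all tested genes on library scaling, 21.0% were called higher and 19.2% lower. The 2 neutrophil markers tested were not called by edgeR, 1 being lower at an unadjusted p under 0.05. Their part in the level of Anln was not tested.

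All 4 genes of mitotic chromatin rose in SiaHi_PD1pos on library scaling, by 1.598 to 1.90 in log2, beside 21.0% of all tested genes called higher. Per T cell core read none of the 4 was called, where 1.90% of all tested genes were called higher and 80.0% lower. Top2a, the topoisomerase that disentangles sister chromatids, on chromosome 11 from 98883769 to 98915015, was at 184, 146 and 167 CPM in SiaHi_PD1neg, 662, 537 and 614 CPM in SiaHi_PD1pos, and 652, 748 and 630.4 CPM in SiaLo_PD1pos. It rose 3.65-fold (log2 1.87, SE 0.14, edgeR adjusted p = 3.89e-07), the smallest adjusted p among the 36. The lowest PD-1-positive library was far above the highest SiaHi_PD1neg library. Mki67, the proliferation antigen Ki-67 that coats mitotic chromosomes, on chromosome 7 from 135291513 to 135318090, was at 112, 102 and 123 CPM, then 479, 301 and 479 CPM, then 453, 489 and 452 CPM. SiaHi_PD1pos replicate 2 was the low library among the PD-1-positive ones. Mki67 rose 3.74-fold (log2 1.90, SE 0.17, edgeR adjusted p = 1.86e-06), and its log2 fold change without that library was 2.11. Smc2, a subunit of condensin, on chromosome 4 from 52439243 to 52488260, was at 59.4, 47.3 and 74.0 CPM, then 195, 165 and 186 CPM, then 200.04, 218 and 193 CPM. It rose 3.03-fold (log2 1.598, SE 0.16, edgeR adjusted p = 4.58e-06). The groups with PD-1 again stood together above the group without it. Hmgb2, a chromatin protein that bends DNA and the most abundant of the 36, on chromosome 8 from 57964941 to 57969033, was at 329, 370.3 and 309.7 CPM, then 1119.8, 1256 and 916 CPM, then 1027, 1205 and 966 CPM. It rose 3.26-fold (log2 1.71, SE 0.15, edgeR adjusted p = 1.55e-06).

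Scaled to T cell core reads, the same counts gave another picture of the PD-1 comparison. The 36 genes summed to 1752, 1521 and 1751 reads per 1000 core reads in SiaHi_PD1neg, 1596, 1318 and 1526 in SiaHi_PD1pos, and 1337, 1433 and 1419.7 in SiaLo_PD1pos. SiaHi_PD1neg replicate 2 overlapped with SiaHi_PD1pos, and all 3 SiaLo_PD1pos libraries lay below all of SiaHi_PD1neg. In SiaHi_PD1pos against SiaHi_PD1neg 0 genes were called higher and 10 lower, Anln, Bub1, Bub1b, Ccnb1, Cdc25c, Cdca3, Cdk1, Ect2, Kif23 and Tpx2 (edgeR, 1.90% of tested genes higher and 80.0% lower). No gene of the set was higher at an unadjusted p under 0.05 either. The calls were not refitted without SiaHi_PD1pos replicate 2, whose sum was the lowest of its group. Of these 10 genes, 4 belong to mitotic entry and 3 to cytokinesis. The median log2 fold change of the 36 was -0.17, where that of all tested genes was -1.82. This scaling moved the median of all tested genes from 0.02. Relative to that median the 36 genes lay 1.65 higher on either scaling. That sameness is by construction, since the scaling shifts all genes by 1 factor per library, and it is not separate evidence. Cdk1, for example, was at 46.9, 33.8 and 34.7 reads per 1000 core reads in SiaHi_PD1neg, 27.0, 31.2 and 25.5 in SiaHi_PD1pos, and 25.8, 26.7 and 27.99 in SiaLo_PD1pos. All PD-1-positive values lay below all SiaHi_PD1neg values. Top2a, by contrast, was at 199.7, 148 and 192 reads, then 202, 144 and 201, then 169.9, 186 and 180.4, and the 3 groups overlapped. Its log2 fold change in SiaHi_PD1pos was 0.02 (95% interval -0.32 to 0.36).

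**Figure D2:**
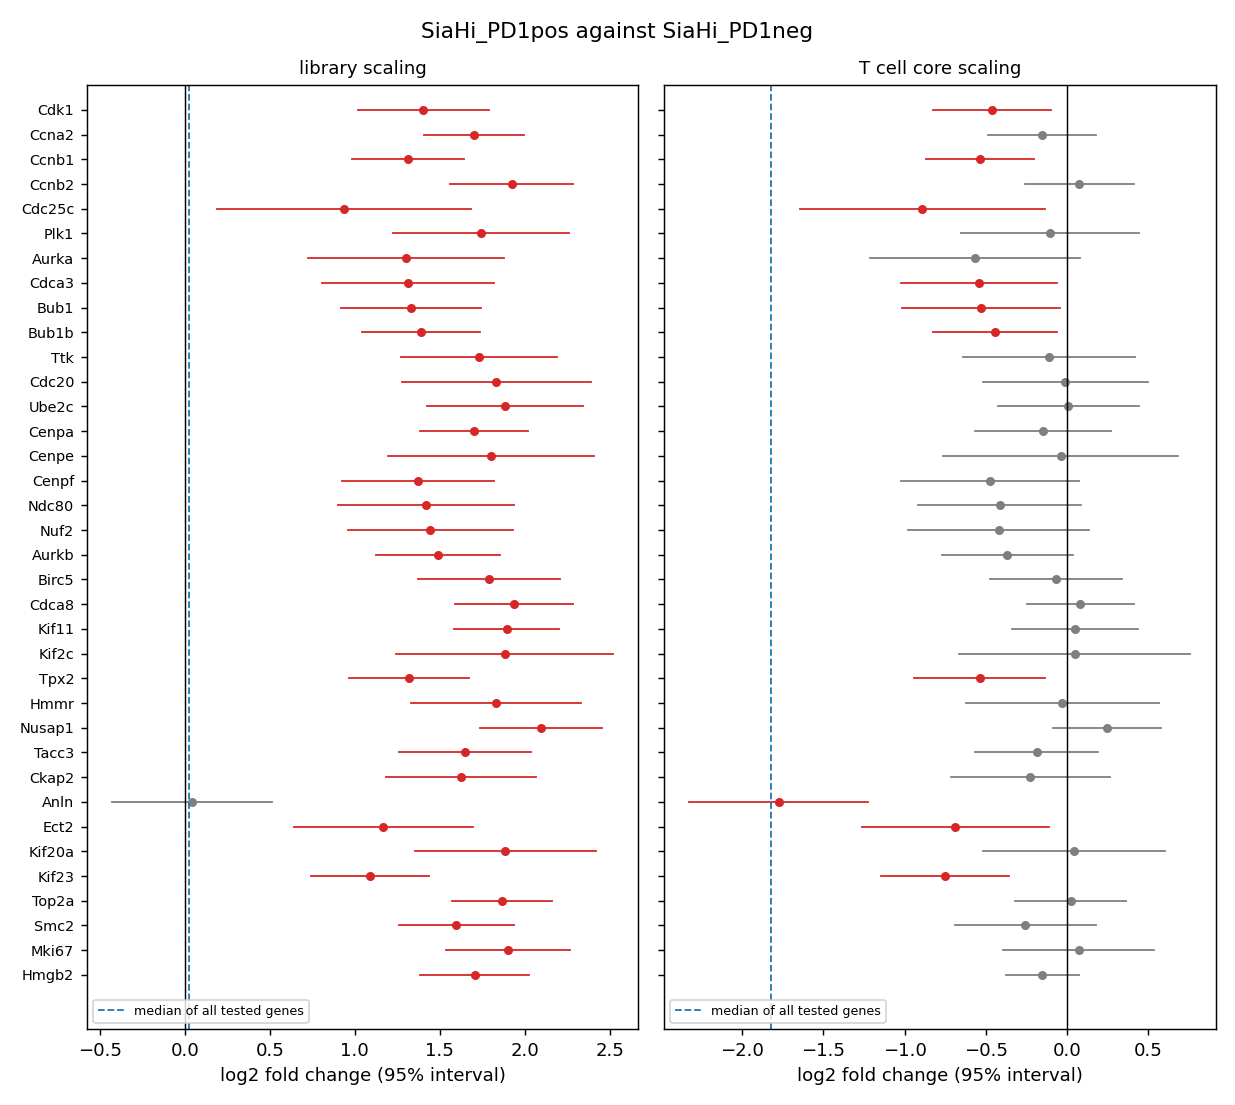
Log2 fold change and 95% interval of each of the 36 genes in SiaHi_PD1pos against SiaHi_PD1neg, on library scaling (left) and scaled to T cell core reads (right), with called genes in red, others in grey and the median of all tested genes as a dashed line. On the left 35 genes are called higher, and on the right none is higher and 10 are lower.

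That scaling takes the core transcripts as equal in each T cell, and the 4 core genes did not move alike. Scaled to their own sum, Cd3e and Cd3g were called higher in SiaHi_PD1pos, with log2 fold changes of 0.70 and 0.42, Cd8b1 was called lower at -0.27, and Cd8a was at -0.17 and not called (edgeR adjusted p = 0.108). Scaling to 1 core gene at a time, tried after this was seen, gave medians of the 36 genes of -0.88 with Cd3e, -0.59 with Cd3g, -0.000345 with Cd8a and 0.11 with Cd8b1. The number of the 36 called lower was 35, 22, 2 and 2 in the same order. Those called higher numbered 0, 0, 1 and 1. With all 4 core genes together, 80.0% of all tested genes were called lower and 1.90% higher. Shares for single core genes are not given here, so these counts stand without a background. The sign relative to core reads thus depended on which core gene was the yardstick. The 36 genes were counted over all RNA of a library, so these values are not levels per T cell.

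**Figure D3:**
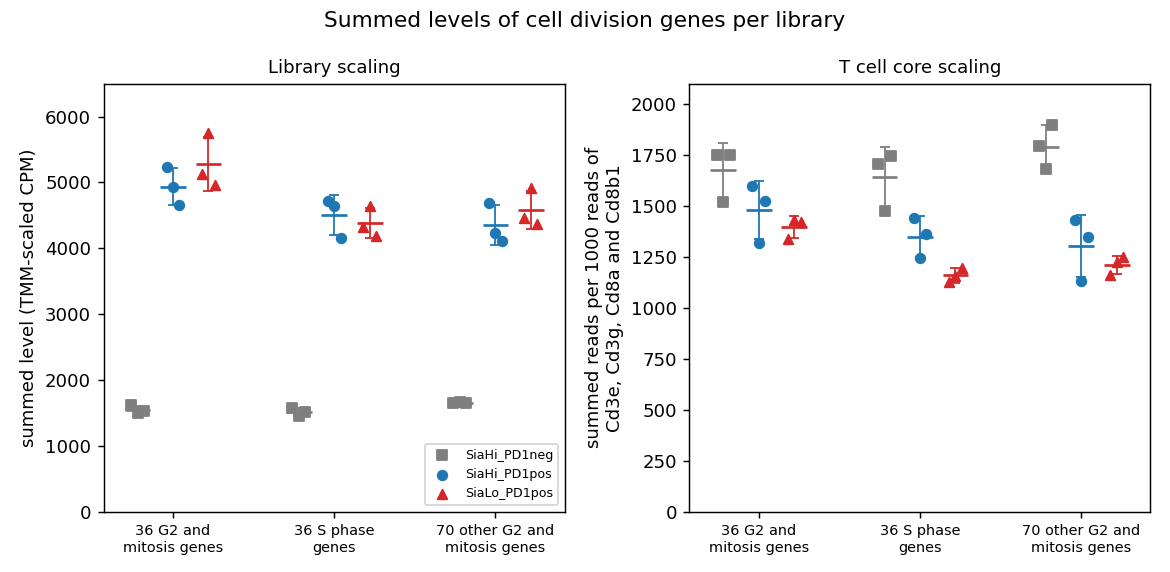
Summed level of the 36 genes, of 36 S phase genes and of 70 other G2 and mitosis genes in each library, as TMM-scaled CPM (left) and as reads per 1000 T cell core reads (right), with 1 point per library, the mean as a bar and the SD over 3 libraries as whiskers. SiaHi_PD1neg has the lowest mean of each list on the left and the highest on the right.

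Among PD-1-positive cells, the question was whether low and high α2,6-sialoglycan at the surface went with different levels of these genes. No difference in the 36 genes passed the test. On library scaling 0 were called higher and 0 lower (edgeR, 0.268% of tested genes higher and 1.13% lower), the smallest adjusted p was 0.608, and 0 reached an unadjusted p under 0.05. DESeq2 also called 0, while limma-voom with sample weights called 1 higher, Cenpa. The median log2 fold change was 0.12, against -0.01 over all tested genes, and single genes ran from -0.08 in Ndc80 to 0.37 in Cenpf. The 95% intervals reached a median of 0.40 to either side, their upper ends were at most 0.95 and their lower ends at least -0.58. A change of 2-fold in either direction was therefore outside the interval of every gene, while smaller changes were not. Scaled to T cell core reads the edgeR calls were again 0 and 0, also at an unadjusted p under 0.05 (0.0589% of tested genes higher and 1.82% lower), with a median of -0.07 against -0.18 over all tested genes.

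Cenpa came nearest to a difference between the PD-1-positive groups. Its 294, 292 and 339 CPM in SiaHi_PD1pos did not overlap with its 376, 354 and 404 CPM in SiaLo_PD1pos. The log2 fold change was 0.30 (95% interval -0.01 to 0.60, edgeR adjusted p = 0.608), and limma-voom gave 0.34 with an adjusted p of 0.00485. Per 1000 T cell core reads it was at 89.7, 78.0 and 111 in SiaHi_PD1pos and 97.9, 88.3 and 116 in SiaLo_PD1pos, and the groups overlapped. Cenpf, a large kinetochore protein gene named after its values were seen, was at 58.5, 42.9 and 55.6 CPM in SiaHi_PD1pos and 65.7, 77.9 and 58.9 CPM in SiaLo_PD1pos. The groups did not overlap, and the log2 fold change of 0.37 (95% interval -0.07 to 0.80) did not pass (edgeR adjusted p = 0.723). Hmgb2, Mki67 and Top2a had log2 fold changes of -0.04, 0.15 and 0.16, with intervals of -0.35 to 0.27, -0.20 to 0.50 and -0.12 to 0.45. Without SiaHi_PD1pos replicate 2 the value of Mki67 was -0.02 and that of Ube2c went from 0.15 to 0.38, neither called, and the median of the 36 was 0.11.

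**Figure D4:**
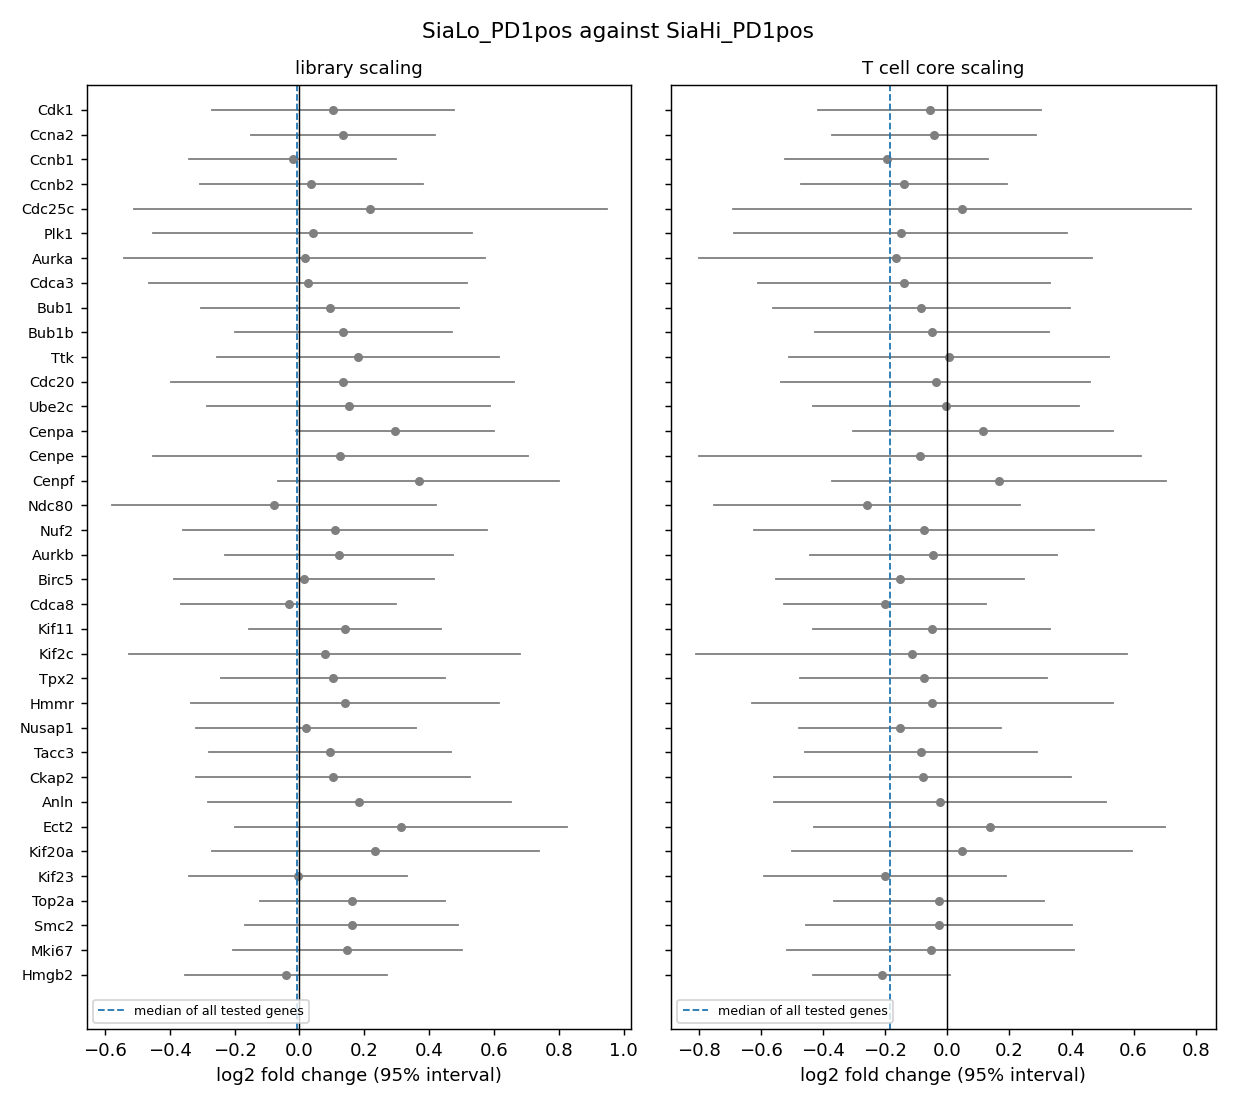
Log2 fold change and 95% interval of each of the 36 genes in SiaLo_PD1pos against SiaHi_PD1pos, on library scaling (left) and scaled to T cell core reads (right), with the median of all tested genes as a dashed line. All points are grey, since none was called, and every interval on the left lies between -0.58 and 0.95.

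SiaLo_PD1pos against SiaHi_PD1neg shares its libraries with the comparisons above, so its values stand beside them and are not separate evidence. On library scaling 35 genes rose and 0 fell (edgeR, 20.5% of tested genes higher and 18.9% lower), with a median log2 fold change of 1.75 against 0.01 over all tested genes. Anln was again the gene not called. Kif20a rose 4.35-fold (log2 2.12, SE 0.25, edgeR adjusted p = 1.63e-05), Nusap1 4.34-fold (log2 2.12, SE 0.17, edgeR adjusted p = 3.99e-07) and Mki67 4.14-fold (log2 2.05, SE 0.17, edgeR adjusted p = 6.79e-07). Top2a, Kif11 and Ube2c rose 4.08-fold, 4.10-fold and 4.10-fold. Cdca8 rose 3.74-fold, Hmgb2 3.17-fold and Ect2 2.79-fold. Scaled to T cell core reads none rose and 12 fell, Anln, Aurka, Bub1, Bub1b, Ccnb1, Cdc25c, Cdca3, Cdk1, Hmgb2, Kif23, Ndc80 and Tpx2 (edgeR, 1.81% of tested genes higher and 82.3% lower). Their largest fall was that of Anln at 3.48-fold (log2 -1.80, SE 0.25), followed by Kif23 at 1.93-fold (log2 -0.95, SE 0.18). The median of the 36 on that scale was -0.28, against -2.01 over all tested genes.

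Levels within the set spanned a wide range and were ordered much alike in the 3 groups, with some changes of place. Per kilobase of gene model, the mean CPM over all libraries was 277 for Hmgb2, 53.5 each for Top2a and Ccnb2 and 44.4 for Cenpa, down to 3.16 for Anln, 3.03 for Cenpf and 2.64 for Cdc25c. Pearson's r of log2 level per kilobase over the 36 genes was 0.998 between the PD-1-positive groups and 0.965 between SiaHi_PD1pos and SiaHi_PD1neg, given as a description, since the genes share libraries and gene lengths. Ccnb2 lay above Top2a in SiaHi_PD1pos, at means of 70.05 and 67.1 CPM per kilobase, and below it in SiaLo_PD1pos, at 71.9 and 75.1. Hmgb2 made up 21.8% of the summed CPM of the set in SiaHi_PD1neg, 22.2% in SiaHi_PD1pos and 20.1% in SiaLo_PD1pos. The share of Anln was 1.74%, 0.566% and 0.596% in the same order.

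Libraries of a group differed from each other in ways that ran through the set. Counts of genes above or below a group mean were taken for the 36 genes alone, not for all tested genes. In SiaLo_PD1pos, replicate 2 lay above the group mean for 34 of the 36 genes and replicate 3 below it for 33. Within SiaHi_PD1pos, replicate 1 lay above the group mean for 29 genes and replicate 3 below it for 25. Replicates 2 and 3 of this group also differed by gene length. Replicate 2 was higher than replicate 3 in short genes, at 151 against 84.0 CPM for Ube2c (2600 bases in the deposited gene model) and 84.5 against 55.1 CPM for Cdc20 (1868 bases). It was lower in long ones, at 301 against 479 CPM for Mki67 (10061 bases) and 61.2 against 114 CPM for the kinesin Cenpe (8620 bases). Spearman's rho between gene length and the deviation from the group mean was -0.66 in replicate 2 and 0.62 in replicate 3 over the 36 genes. Over all 15292 tested genes it was -0.38 and 0.28. In SiaHi_PD1neg the rho of replicates 2 and 3 was -0.17 and 0.41 over the 36 genes, and -0.03 and 0.11 over all tested genes. In SiaLo_PD1pos it was -0.22 and -0.01 over the 36 genes, and -0.14 and 0.16 over all tested genes. These are descriptions over genes of the same libraries, with no test. In SiaLo_PD1pos against SiaHi_PD1pos, log2 fold change and length had a rho of 0.42 over the 36 genes and 0.14 over all tested genes. The part of this pattern in the single-gene values was not tested beyond leaving out replicate 2, which left 34 of the 36 genes called higher in SiaHi_PD1pos against SiaHi_PD1neg, with a median of 1.66.

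**Figure D5:**
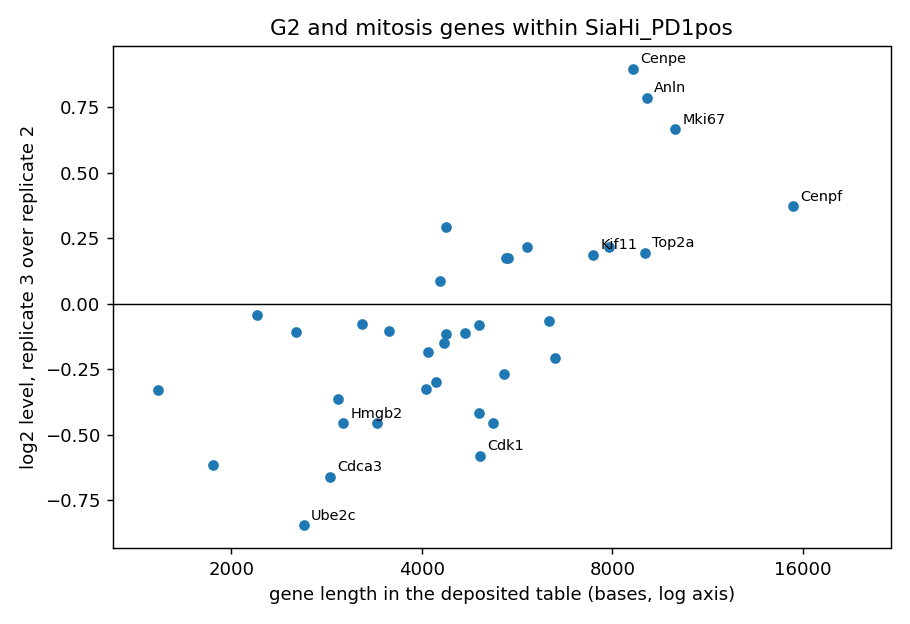
Log2 ratio of the level in replicate 3 over replicate 2 of SiaHi_PD1pos against gene length in the deposited table (log axis), with 1 point for each of the 36 genes. Short genes such as Ube2c lie below 0 and long ones such as Cenpe and Mki67 above it.

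Other genes of the cell cycle were read from lists chosen with earlier results of these data known. Of 70 further G2 and mitosis genes, 65 rose in SiaHi_PD1pos against SiaHi_PD1neg on library scaling and none fell, with a median of 1.55. Over all tested genes 21.0% were called higher there and 19.2% lower. Per T cell core read 3 of the 70 rose and 23 fell, beside the 1.90% and 80.0% of all tested genes. The one with the smallest adjusted p was Kif15, a spindle kinesin, at 18.9, 20.8 and 16.9 CPM in SiaHi_PD1neg, 123, 109.7 and 113 CPM in SiaHi_PD1pos, and 113, 116 and 98.6 CPM in SiaLo_PD1pos. It rose 6.09-fold in SiaHi_PD1pos (log2 2.61, SE 0.14, edgeR adjusted p = 4.34e-08), more than any of the 36, and per T cell core read it still rose 1.70-fold (edgeR adjusted p = 0.000522). Between the PD-1-positive groups 0 of the 70 were called in either direction (edgeR), with 1 higher and 0 lower at an unadjusted p under 0.05 and a median of 0.10. All 36 S phase genes, which copy DNA before mitosis, rose in SiaHi_PD1pos on library scaling, with a median of 1.73, beside the same 21.0%. Per T cell core read 9 fell and none rose, beside 80.0% and 1.90% of all tested genes. At an unadjusted p under 0.05, 1 of the S phase genes was higher there. Mcm6, a subunit of the replicative helicase, had the smallest adjusted p of them and rose 3.65-fold (log2 1.87, SE 0.11, edgeR adjusted p = 1.01e-07), and per T cell core read its log2 fold change was 0.02. Between the PD-1-positive groups their median was -0.02, with 0 called by edgeR and 1 lower at an unadjusted p under 0.05. The 36 G2 and mitosis genes had 1.03, 1.03 and 1.00 reads for each S phase read in SiaHi_PD1neg, 1.11, 1.06 and 1.12 in SiaHi_PD1pos, and 1.19, 1.24 and 1.19 in SiaLo_PD1pos. This ratio needs no scaling between libraries, and the 3 groups did not overlap in it. The 70 other G2 and mitosis genes gave another order, with 1.05, 1.14 and 1.09 reads for each S phase read in SiaHi_PD1neg, 0.993, 0.912 and 0.988 in SiaHi_PD1pos, and 1.03, 1.06 and 1.04 in SiaLo_PD1pos. Against those 70 genes, the 36 had 0.978, 0.904 and 0.922 reads for each read in SiaHi_PD1neg, 1.11, 1.16 and 1.13 in SiaHi_PD1pos, and 1.15, 1.17 and 1.14 in SiaLo_PD1pos, and the PD-1-positive groups overlapped. None of these ratios was tested, since the lists were chosen with results known.

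The upstream regulators were mixed. Of 21 genes of the DREAM, MuvB, B-MYB and FOXM1 complexes, 16 rose and 1 fell in SiaHi_PD1pos against SiaHi_PD1neg on library scaling. Over all tested genes 21.0% were called higher there and 19.2% lower. Per T cell core read none of the 21 rose and 16 fell, the latter near the 80.0% of all tested genes that were called lower. Mybl2, which encodes B-MYB, was at 6.49, 9.47 and 14.6 CPM in SiaHi_PD1neg, 47.8, 35.9 and 28.9 CPM in SiaHi_PD1pos, and 42.0, 47.0 and 43.9 CPM in SiaLo_PD1pos. It rose 3.70-fold (log2 1.89, SE 0.28, edgeR adjusted p = 0.00012), and per T cell core read it was not called (log2 0.02, 95% interval -0.64 to 0.68). Foxm1 was at 32.6, 29.8 and 24.3 CPM, then 55.6, 38.9 and 49.1 CPM, then 58.9, 56.9 and 59.2 CPM. It rose 1.65-fold (log2 0.73, SE 0.17, edgeR adjusted p = 0.00464), and per T cell core read it fell 2.15-fold (edgeR adjusted p = 0.000342). The regulator with the smallest adjusted p was Tfdp1, which encodes the E2F partner DP1. It rose 3.31-fold (log2 1.73, SE 0.18, edgeR adjusted p = 6.81e-06), and per T cell core read its log2 fold change of -0.13 was not called. Between the PD-1-positive groups the regulator called was Rbl2, which encodes p130, the pocket protein of DREAM in quiescent cells. It was at 148, 107 and 152 CPM in SiaHi_PD1pos and 230.3, 219 and 229 CPM in SiaLo_PD1pos, and the groups did not overlap. Rbl2 rose 1.67-fold (log2 0.74, SE 0.17, edgeR adjusted p = 0.0464), and scaled to T cell core reads it was not called (log2 0.54, edgeR adjusted p = 0.249). The call was also lost in 7 of the 9 fits that left out 1 library, all but those without SiaHi_PD1neg replicate 2 or 3, where its adjusted p reached 0.166.

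Of 19 cell cycle inhibitors and quiescence genes, 3 rose and 5 fell in SiaHi_PD1pos against SiaHi_PD1neg on library scaling, 0 rose and 17 fell per T cell core read, and 1, Klf2, fell in SiaLo_PD1pos against SiaHi_PD1pos. These counts are near the shares of all tested genes called in SiaHi_PD1pos, which were 21.0% higher and 19.2% lower on library scaling and 80.0% lower per T cell core read. Klf2, a transcription factor of quiescent T cells, was at 461, 666 and 429 CPM in SiaHi_PD1neg, 108, 152 and 124 CPM in SiaHi_PD1pos, and 58.9, 73.4 and 71.6 CPM in SiaLo_PD1pos. The 3 groups did not overlap. It fell 1.88-fold between the PD-1-positive groups (log2 -0.91, SE 0.18, edgeR adjusted p = 0.0237), while none of the 36 G2 and mitosis genes was called there. The call on Klf2 was lost without SiaHi_PD1pos replicate 2 or 3 or any 1 SiaLo_PD1pos library, with an adjusted p of up to 0.1202. Beside this comparison, 10 of 17 dendritic cell and MHC class II markers and 3 of 7 tested B cell markers fell in SiaLo_PD1pos. There 3 of 14 melanoma markers rose, while over all tested genes 0.268% were called higher and 1.13% lower. None of the macrophage, stromal or neutrophil markers was called there by edgeR (4, 0 and 1 lower and 0 higher at an unadjusted p under 0.05), 3 of 8 CD4 and regulatory T cell markers fell, and 2 of 11 natural killer cell markers rose and 1 fell. The summed melanoma markers were at 887 to 1045 CPM in SiaHi_PD1pos and 1717 to 3422 CPM in SiaLo_PD1pos, and at 4103 to 8676 CPM in SiaHi_PD1neg. No melanoma or dendritic marker was at 0 in a whole group, and the part of these cells in the levels of the 36 genes was not tested. Of 7 neutrophil markers, Ly6g and Retnlg were at 0 in every library.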

How the data were processed

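Poly-A RNA of CD8-positive T cells from 3 sorted groups of 3 libraries was measured by RNA sequencing with paired reads. The deposited table holds whole-number counts per gene, which per the submitters' processing notes were made with Trim Galore 0.6.5, STAR 2.7.6a and featureCounts 1.6.3 on GRCm38. The annotation, strand setting and treatment of multiply mapped reads were not given in the sources used here. The table's own coordinates are printed as the file gives them, and their build is not stated. For 0 of the 36 genes did both ends equal those of RefSeq GRCm38.p6, though the chromosomes did. For 1 gene the start lay within 100 bases. The gene coordinates therefore cannot be laid over the promoter coordinates, which are on GRCm38.p6. Libraries held 9714020 to 15030442 counts, of which the 36 genes took 15552 to 79608 per library.

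Counts were tested with edgeR 4.0.16 in R 4.3.3 (filterByExpr, TMM, quasi-likelihood F test, 1 fit of 9 libraries, Benjamini-Hochberg adjustment over 15292 genes, threshold 0.05). T cell core scaling divided each library by its reads in 4 genes, Cd3e, Cd3g, Cd8a and Cd8b1, and its levels are reads per 1000 core reads. Alternatives used DESeq2 1.42.0, limma 3.58.1, other scalings and filters, a replicate block and leaving out each library. The labels do not say whether same-numbered libraries share an animal or a sort. Such libraries deviated together with correlations of -0.02 to 0.16, and the numbers were not taken as pairing in the main fit. The code was tested on simulated data. Fully described genes were the 2 of each role with the highest level per kilobase and up to 5 further called genes per comparison with the smallest adjusted p. Outside the set these were Foxm1, Mybl2, Pdcd1, the core genes and the called gene with the smallest adjusted p in each list, except that marker lists are given as counts only. The members, roles, lists and tests were chosen with earlier results of these data known. Lists of melanoma, dendritic, B, macrophage, CD4 and regulatory T, natural killer, stromal and neutrophil markers were read as counts and summed CPM.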

Additional observations from a re-analysis of the deposited data

How the results depend on the processing

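With DESeq2 size factors, no composition scaling, either low-count filter, only the 6 libraries compared, DESeq2 or limma-voom they stayed at 34 or 35 higher and 0 lower in both comparisons with SiaHi_PD1neg, and at 0 in SiaLo_PD1pos against SiaHi_PD1pos except with limma-voom, which called 1 higher. Leaving out each library in turn gave 34 to 35 higher, 0 lower and medians of 1.61 to 1.71 in SiaHi_PD1pos against SiaHi_PD1neg, 34 to 35, 0 and 1.70 to 1.86 in SiaLo_PD1pos against SiaHi_PD1neg, and 0, 0 and 0.06 to 0.18 in SiaLo_PD1pos against SiaHi_PD1pos. The gene lost in these fits was Cdc25c, whose call in SiaHi_PD1pos was also lost with DESeq2 size factors (edgeR adjusted p = 0.0530), the 5 CPM filter (0.0619) and only the 6 libraries compared (0.102). The labels do not say what same-numbered libraries share. A replicate block on these numbers left 35, 35 and 0 called higher with medians of 1.69, 1.77 and 0.12.

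Scaling to T cell transcripts moved the results most. On T cell core scaling 1.90% of all tested genes were called higher and 80.0% lower in SiaHi_PD1pos against SiaHi_PD1neg. For SiaLo_PD1pos against SiaHi_PD1neg these shares were 1.81% and 82.3%. Shares under the other scalings to core genes are not given here. In SiaHi_PD1pos against SiaHi_PD1neg, T cell core scaling gave 0 higher, 10 lower and a median of -0.17, the same counts with the replicate block and -0.17, and with 10 core genes 0, 10 and -0.22. Scaling to single core genes, chosen after seeing the data, gave 0, 35 and -0.88 with Cd3e, 0, 22 and -0.59 with Cd3g, 1, 2 and -0.000345 with Cd8a, and 1, 2 and 0.11 with Cd8b1. In SiaLo_PD1pos against SiaHi_PD1neg the same scalings in this order gave 0, 12 and -0.28, then 0, 12 and -0.25 with the replicate block, then 0, 12 and -0.26. Single genes gave 0, 36 and -1.02 with Cd3e, 0, 24 and -0.67 with Cd3g, 0, 7 and -0.17 with Cd8a, and 1, 2 and 0.10 with Cd8b1. Between the PD-1-positive groups the median was -0.066 on T cell core scaling, -0.049 with the replicate block as well, -0.10 with Cd3e, -0.055 with Cd3g and -0.13 with Cd8a, but -0.0021 with the 10-gene core and 0.032 with Cd8b1, so its sign depended on the scaling. These scalings shift all genes by 1 factor per library by construction. In SiaHi_PD1pos against SiaHi_PD1neg, 27 of the 36 genes had negative log2 fold changes on T cell core scaling and 9 positive ones. The median over all tested genes on that scaling was -1.82, below the -0.17 of the 36. Only fully described genes and those named after their values were seen are listed singly, so the lists are not complete. The genes below were called higher on library scaling and turned negative. Their values are on T cell core scaling, on that scaling with the replicate block and with the 10-gene core, in this order. Birc5 had -0.068, -0.056 and -0.12. Ccna2 had -0.15, -0.15 and -0.20. Cdc25c had -0.89, -0.82 and -0.95. Cdk1 had -0.46, -0.46 and -0.51. Cenpa had -0.15, -0.14 and -0.19. Cenpf had -0.48, -0.47 and -0.51. Ect2 had -0.69, -0.66 and -0.73. Foxm1 had -1.10, -1.13 and -1.15. Hmgb2 had -0.15, -0.15 and -0.20. Kif23 had -0.75, -0.75 and -0.80. Rbl2 had -0.52, -0.55 and -0.56. Smc2 had -0.26, -0.24 and -0.30. Tacc3 had -0.19, -0.18 and -0.24. Tfdp1 had -0.13, -0.11 and -0.17. Tpx2 had -0.54, -0.52 and -0.58. The sign also turned with T cell core scaling for Cdc20, at -0.011. The sign also turned with the 10-gene core for Cdc20, Mcm6, Mybl2, Top2a and Ube2c, at -0.066, -0.028, -0.019, -0.019 and -0.042. In SiaLo_PD1pos against SiaHi_PD1neg, 32 of the 36 genes had negative log2 fold changes on T cell core scaling and 4 positive ones. All tested genes had a median of -2.01 there, below the -0.28 of the 36. Among the genes listed singly, those called higher on library scaling that turned negative follow. Their values are on T cell core scaling, on that scaling with the replicate block and with the 10-gene core, in this order. Birc5 had -0.22, -0.20 and -0.20. Ccna2 had -0.20, -0.19 and -0.17. Ccnb2 had -0.066, -0.064 and -0.047. Cdc20 had -0.049, -0.017 and -0.034. Cdc25c had -0.85, -0.77 and -0.83. Cdca8 had -0.12, -0.12 and -0.10. Cdk1 had -0.52, -0.51 and -0.50. Cenpa had -0.035, -0.017 and -0.012. Cenpf had -0.31, -0.26 and -0.28. Ect2 had -0.55, -0.54 and -0.53. Foxm1 had -1.01, -1.01 and -0.99. Hmgb2 had -0.36, -0.36 and -0.34. Kif23 had -0.95, -0.94 and -0.93. Mcm6 had -0.19, -0.19 and -0.17. Smc2 had -0.28, -0.25 and -0.26. Tacc3 had -0.27, -0.26 and -0.25. Tfdp1 had -0.25, -0.22 and -0.23. Tpx2 had -0.61, -0.59 and -0.59. The sign also turned with T cell core scaling for Kif11 and Top2a, at -0.00299 and -0.00644.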
